A study of Mus musculus with 8 samples.

Results

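The genes described here are 10 factors that set epithelial identity: the grainyhead-like transcription factors Grhl1, Grhl2 and Grhl3, the OVO-like zinc finger repressors Ovol1 and Ovol2, the epithelial splicing regulators Esrp1 and Esrp2, and the epithelium-specific ETS factors Elf3, Elf5 and Ehf. They were taken by gene name and are covered by 13 of the 39429 probes of the array, with 3 of the genes (Grhl2, Esrp1 and Ehf) on 2 probes each. Of the 10 genes, 9 passed the filter on dim probes and were among the 25536 genes tested. Elf5 passed through the Nedd9-null arrays alone, and Ovol1 did not pass. RNA came from spontaneous ovarian tumours of female C57BL/6J mice, 4 of them Nedd9-null and 4 Nedd9-WT, killed once a tumour had reached 2000 mm3. All 8 mice carried the TgMISIIR-TAg transgene, named here as the strain label gives it, in which the promoter of the anti-Muellerian hormone receptor gene Amhr2 drives the SV40 T antigen, so neither group is free of the oncogene. Each tumour was hybridised to 1 single-colour Agilent array, and the number of arrays limits the precision.

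A level is the log2 signal minus that of the array's 75th percentile, given per tumour or as mean ± SD, and levels compare tumours for 1 probe, not probes with each other. Each difference is the Nedd9-null mean less the Nedd9-WT mean, its standard error (SE) comes from a limma fit over all genes, and a gene was called at a Benjamini-Hochberg adjusted p under 0.05 over all genes. Between 73.0% and 84.6% of probes were well above background, the scanner software's call that a spot exceeds its background. Nedd9 differed by -4.49 (SE 0.44, limma adjusted p = 0.0270), and by -4.90 without the first Nedd9-null replicate, with no overlap between the genotypes, in the direction of the labels. Nedd9-null replicate 1 stood apart from its group: its correlation over genes was 0.938 to 0.973 with the Nedd9-WT arrays and 0.886 to 0.920 with the other Nedd9-null arrays. Fitted differences of the genes described below are therefore given with and without it. No slide held arrays of both genotypes, so slide and genotype cannot be told apart.

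Epithelial identity is held by a small circuit. Grainyhead-like factors bind and open enhancers of junction genes such as those of E-cadherin and claudins, and GRHL2 and ZEB1 repress each other. OVOL proteins repress Zeb and other mesenchymal genes. ESRP proteins bind RNA and favour the epithelial splice forms of Fgfr2, Cd44, Ctnnd1 and Enah, while ELF3, ELF5 and EHF are ETS-domain activators found mainly in glandular and lining epithelia. In the female tract several of these factors belong to the oviduct and other lining epithelia and are not typical of granulosa or stromal cells of the ovary.

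With all 8 tumours, 0 of the 9 tested genes were called by limma, where 0.0744% of all genes were: 17 higher (0.0666%) and 2 lower (0.00783%) in Nedd9-null tumours. At an unadjusted p under 0.05 there were 6, against 23.6% of all genes, with 5 higher (13.9% of all genes) and 1 lower (9.68%). Of the 9 genes, 6 had a difference above 0, as did 54.1% of all genes. Elf5 had to differ to pass the filter, and among the other 8 genes 5 had a difference above 0, with 4 higher and 1 lower at an unadjusted p under 0.05. The median difference over these 8 was 0.95, and 0.87 without Nedd9-null replicate 1, against 0.05 and -0.05 over all genes tested. Without Nedd9-null replicate 1, Grhl2, Grhl3, Elf3, Elf5 and Ehf rose and Esrp2 fell, so that 6 of 9 were called where 18.4% of all genes were. Of these, 5 were higher (4 of the 8 genes besides Elf5), where 10.5% of all genes were, and 1 was lower, where 7.92% were. Grhl1, Ovol2 and Esrp1 were not called in either fit. Of the 8 genes besides Elf5, 1 (Grhl2) did not overlap between the genotypes and was higher in Nedd9-null tumours, against 7.98% of all genes separated in that direction, 4.65% in the other and 12.6% in either. Without Nedd9-null replicate 1, 4 of the 8 were separated upward, against 16.9% of all genes, and 1 downward, against 17.1%.

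**Figure D1:**
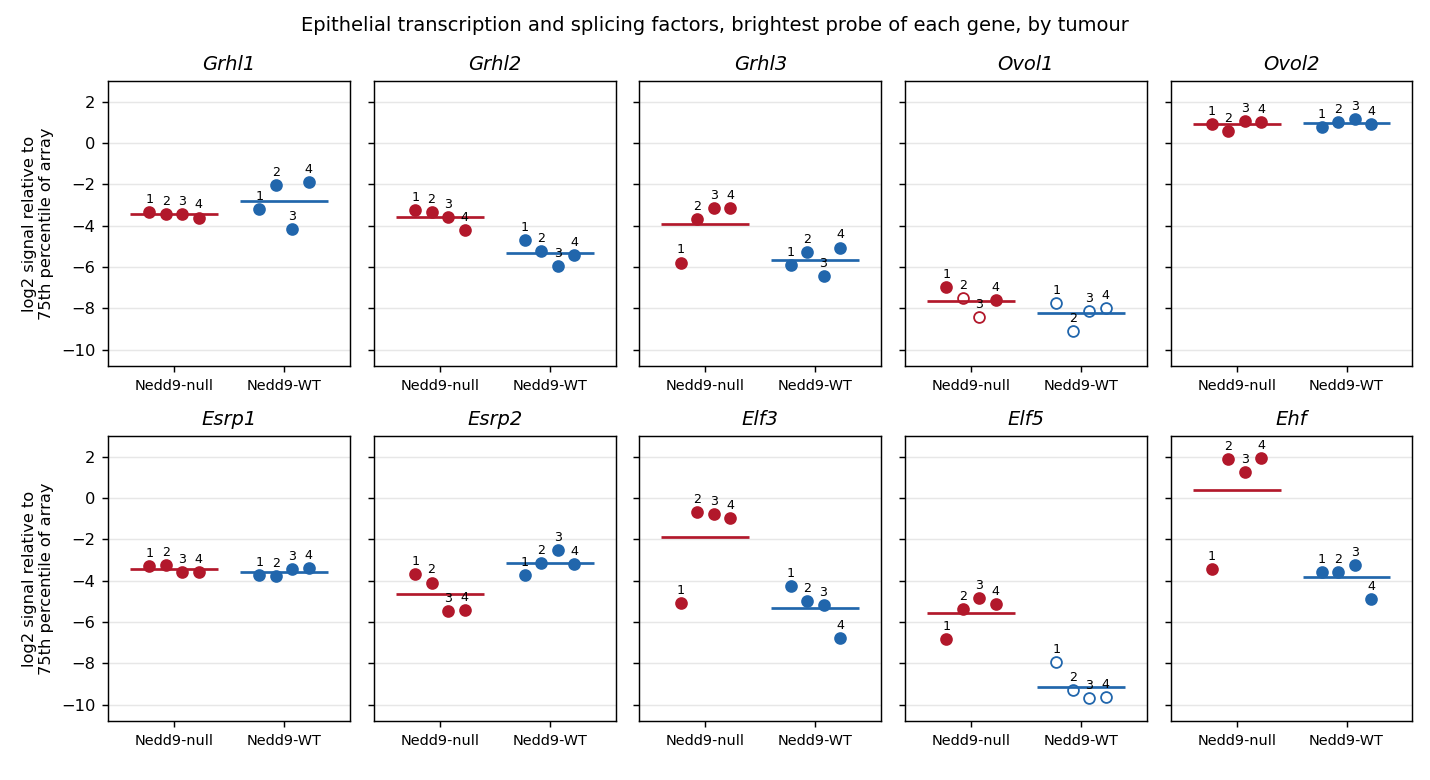
Each panel plots 1 gene, with the level (log2 signal minus that of the array's 75th percentile) on the vertical axis, Nedd9-null tumours in red and Nedd9-WT tumours in blue, numbered by replicate, and the group mean as a line; open symbols were not well above background. In Ehf and Elf3, Nedd9-null replicates 2 to 4 lie above all other tumours and replicate 1 lies among the Nedd9-WT tumours, whereas in Grhl2 and Elf5 all 4 Nedd9-null tumours lie above the Nedd9-WT tumours.

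Ehf and Elf3 had larger differences than the grainyhead-like, OVO-like and ESRP genes. Ehf, an ETS activator of secretory and ductal epithelium, had -3.45, 1.88, 1.25 and 1.91 in Nedd9-null replicates 1 to 4, against -3.56, -3.60, -3.25 and -4.87 in Nedd9-WT replicates 1 to 4. Nedd9-null replicates 2 to 4 were high and replicate 1 fell within the Nedd9-WT range. In processed signal the brighter probe of Ehf read 233, 13631, 8241 and 14239 in Nedd9-null tumours and 263, 284, 334 and 110 in Nedd9-WT tumours. Ehf averaged 0.40 ± 2.58 in Nedd9-null tumours, against -3.82 ± 0.72 in Nedd9-WT tumours (SD, n = 4 each), a difference of 4.22 (SE 1.18, 95% interval 1.49 to 6.94) or 18.6-fold, with a limma adjusted p of 0.107 and an exact permutation p of 0.0571. Without Nedd9-null replicate 1 the difference was 5.50 (SE 0.41), 45.3-fold, with a limma adjusted p of 3.96e-04.

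The second Ehf probe lies 7.22 kb away and gave the same picture. Its values were -3.97, 1.04, 0.36 and 0.92 in Nedd9-null tumours, against -4.18, -4.20, -5.47 and -4.93 in Nedd9-WT tumours. On this probe the genotypes did not overlap, since Nedd9-null replicate 1 lay just above Nedd9-WT replicate 1, and the difference was 4.28 (exact permutation p = 0.0286, two-sided, as are all those given here, and no smaller p can come from 70 arrangements; limma adjusted p = 0.0910 over probes).

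For Ehf, Grhl2 and Esrp1 the probe nearer the gene's 5′ end is printed, because it reads the gene at a second site and shows how far a call rests on 1 oligo. The sequences are the array's own, given 5′ to 3′ with mm9 positions from the scanner files, and the exons they lie in were not assigned here.
Ehf (A_55_P2070809, chr2:103114043-103114102, minus strand): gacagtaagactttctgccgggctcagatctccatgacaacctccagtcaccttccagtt
Grhl2 (A_51_P408821, chr15:37239426-37239485, plus strand): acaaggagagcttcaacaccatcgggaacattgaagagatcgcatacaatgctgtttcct
Esrp1 (A_55_P2033767, chr4:11284629-11284688, minus strand): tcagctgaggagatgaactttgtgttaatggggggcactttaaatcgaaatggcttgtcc
The Ehf oligo exceeded its background on each of the 8 arrays. The Grhl2 oligo was so on 1 of 4 Nedd9-null and 0 of 4 Nedd9-WT arrays, and the Esrp1 oligo on 2 of 4 Nedd9-null and 1 of 4 Nedd9-WT arrays, so the values of both genes rest on their other probe.

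Elf3, an ETS factor of gut, airway and glandular epithelium, followed Ehf. Its values were -5.09, -0.69, -0.78 and -0.99 in Nedd9-null replicates 1 to 4, against -4.28, -5.01, -5.18 and -6.77 in Nedd9-WT replicates 1 to 4. Again Nedd9-null replicates 2 to 4 stood above every other tumour, close together, and replicate 1 was below Nedd9-WT replicates 1 and 2. Elf3 averaged -1.88 ± 2.14 in Nedd9-null tumours, against -5.31 ± 1.05 in Nedd9-WT tumours (SD, n = 4 each). The difference of 3.42 (SE 1.05), 10.7-fold, had a limma adjusted p of 0.121 and became 4.49 (SE 0.54, limma adjusted p = 0.00200) without Nedd9-null replicate 1.

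Elf5, which directs alveolar fate in the mammary gland and is needed in trophoblast, was dim but separated the genotypes. It had -6.81, -5.36, -4.86 and -5.15 in Nedd9-null tumours, against -7.94, -9.31, -9.67 and -9.63 in Nedd9-WT tumours. It was well above background on all 4 Nedd9-null arrays and on none of the Nedd9-WT arrays, and all 4 Nedd9-null values, replicate 1 included, were above the Nedd9-WT values, a description of a gene that passed the filter by being high in that group. The Nedd9-WT level is thus only a bound. Set against the dimmest probe that passed as above background on each Nedd9-WT array, Elf5 in Nedd9-null tumours was at least 4.24-fold higher on the scale of the processed signal. The measured difference was 3.59 (SE 0.53, limma adjusted p = 0.0551). It missed the threshold narrowly with all tumours, passed without Nedd9-null replicate 1 (4.02, SE 0.44, limma adjusted p = 0.00139) and without Nedd9-WT replicate 1 (3.99, limma adjusted p = 0.0452). The measured difference was 0.98 with normexp background correction and 1.26 in the deposited value table, both smaller than this bound, so neither the size nor the bound holds across treatments of the background.

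**Figure D2:**
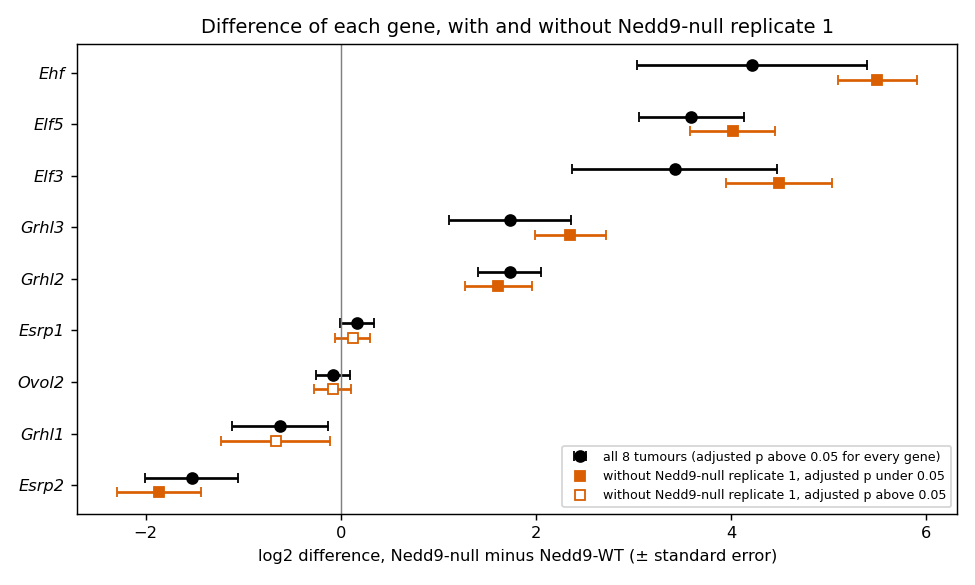
The log2 difference, Nedd9-null minus Nedd9-WT, is plotted for the 9 tested genes with its standard error, from the fit of all 8 tumours (black circles) and from the fit without Nedd9-null replicate 1 (orange squares, filled where the adjusted p was under 0.05). The intervals of Ehf and Elf3 narrow most without that tumour, with SE of 0.41 and 0.54 in place of 1.18 and 1.05, and Esrp2 is the gene called in the opposite direction.

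Among the grainyhead-like factors, Grhl2 and Grhl3 were higher in Nedd9-null replicates 2 to 4 and Grhl1 was not. Grhl2, which sustains E-cadherin and claudin transcription, had -3.23, -3.33, -3.56 and -4.19 in Nedd9-null tumours, against -4.67, -5.21, -5.93 and -5.41 in Nedd9-WT tumours. Nedd9-null replicate 1 had the highest of these values, unlike in the ETS genes, and the genotypes did not overlap (exact permutation p = 0.0286). The difference was 1.73 (SE 0.32), 3.32-fold, with a limma adjusted p of 0.0696, and it was 1.61 (SE 0.34, limma adjusted p = 0.0186) without Nedd9-null replicate 1. The second, dim Grhl2 probe, 53.7 kb away, differed by 1.11 with overlapping groups (exact permutation p = 0.171).

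Grhl3, required for closure of the skin barrier and neural tube, had -5.78, -3.67, -3.12 and -3.13 in Nedd9-null replicates 1 to 4, against -5.89, -5.26, -6.45 and -5.05 in Nedd9-WT replicates 1 to 4. Nedd9-null replicate 1 lay within the Nedd9-WT range and the other 3 lay above it. Its difference of 1.73 (SE 0.63) had a limma adjusted p of 0.158, and without Nedd9-null replicate 1 it was 2.35 (SE 0.36, limma adjusted p = 0.00527). Grhl1, which controls desmosomal cadherins in skin, averaged -3.44 ± 0.12 in Nedd9-null tumours, against -2.82 ± 1.09 in Nedd9-WT tumours (SD, n = 4 each). Its Nedd9-WT values spread from -4.18 to -1.86 around the narrow Nedd9-null range of -3.60 to -3.31, and the difference of -0.62 (SE 0.49, 95% interval -1.77 to 0.52, limma adjusted p = 0.483) was within that spread. The Grhl1 difference was -0.67 (SE 0.56, limma adjusted p = 0.467) without Nedd9-null replicate 1.

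The OVO-like genes showed no called difference. Ovol2, a repressor of mesenchymal genes in epithelia, had 0.91, 0.58, 1.07 and 1.04 in Nedd9-null tumours, against 0.78, 1.03, 1.16 and 0.94 in Nedd9-WT tumours. The groups overlapped fully, and the difference was -0.08 (SE 0.17, 95% interval -0.48 to 0.32, limma adjusted p = 0.820), an interval that leaves out the differences seen in Ehf, Elf3 and Elf5. The Ovol2 difference was also -0.08 (SE 0.19, limma adjusted p = 0.810) without Nedd9-null replicate 1. Ovol1, its relative in epidermis and germ cells, was near background: -6.94, -7.50, -8.43 and -7.60 in Nedd9-null tumours, against -7.75, -9.11, -8.13 and -8.00 in Nedd9-WT tumours. It cleared the background on 2 of 4 Nedd9-null and 0 of 4 Nedd9-WT arrays, so it was not tested in the fit, and the groups overlapped (exact permutation p = 0.229). For the probes of the epithelial factors, 13 such permutation tests were made, 1 a probe, with no adjustment. Those computed for other genes are not given here, apart from that of a Cd44 probe ratio below.

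The splicing regulators did not move together. Esrp2 had -3.67, -4.09, -5.47 and -5.44 in Nedd9-null tumours, against -3.75, -3.13, -2.50 and -3.18 in Nedd9-WT tumours. Nedd9-null replicates 3 and 4 were lowest, and replicate 1 lay just above the lowest Nedd9-WT tumour. It averaged -4.67 ± 0.92 in Nedd9-null tumours, against -3.14 ± 0.51 in Nedd9-WT tumours (SD, n = 4 each), a difference of -1.53 (SE 0.48, limma adjusted p = 0.124). Without Nedd9-null replicate 1 Esrp2 fell, by 1.86 on the log2 scale (SE 0.43, limma adjusted p = 0.0255), and the sign held under every alternative run (-1.86 to -1.16). Esrp1, its close paralogue, averaged -3.41 ± 0.18 in Nedd9-null tumours, against -3.58 ± 0.20 in Nedd9-WT tumours (SD, n = 4 each), a difference of 0.16 (SE 0.17, 95% interval -0.23 to 0.56, limma adjusted p = 0.605) that turned negative with 2 other scalings and in the deposited value table. The Esrp1 difference was 0.12 (SE 0.18, limma adjusted p = 0.703) without Nedd9-null replicate 1.

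Genes whose transcripts ESRP proteins splice were read at the level of single probes, which do not report exon inclusion. Of these 8 genes, 2 were higher and 6 lower in Nedd9-null tumours, none was called with all tumours, and 1 rose and 3 fell without Nedd9-null replicate 1, where 10.5% of all genes were called higher and 7.92% lower. Cd44, the hyaluronan receptor, differed by 2.68 (SE 0.56, limma adjusted p = 0.0778) and by 3.21 without Nedd9-null replicate 1 (limma adjusted p = 0.00140), with -1.41, 1.20, 0.76 and 0.21 in Nedd9-null tumours, against -1.98, -2.99, -2.88 and -2.12 in Nedd9-WT tumours. The catenin gene Ctnnd1 differed by -0.84 (SE 0.31), the exchange factor gene Arhgef11 by -0.58 (SE 0.21) and the kinase gene Slk by -0.95 (SE 0.27), and these are the 3 that fell without Nedd9-null replicate 1, by 1.15, 0.76 and 1.08 on the log2 scale (limma adjusted p = 0.00373, 0.0150 and 0.0328). Cd44 has 4 probes, of which 2 exceeded their background on a single Nedd9-WT array each and give no usable difference. The remaining pair differed by 2.68 and 2.43, and the log2 ratio of the dimmer to the brighter differed between genotypes by -0.26 (exact permutation p = 0.457, the same after Benjamini-Hochberg adjustment over the 3 ratios computed).

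Relatives from the same families, and other splicing factors, were mostly near 0 or lower. Of 11 tested relatives (the CP2 genes Tfcp2, Tfcp2l1 and Ubp1, the ETS genes Spdef, Elf1, Elf2 and Elf4, and the splicing factors Rbm47, Rbfox2, Qk and Mbnl1), 2 were higher and 9 lower, with a median difference of -0.18 and none called. Rbfox2, a splicing factor active in mesenchymal and neural programmes, was lower in every Nedd9-null tumour (-0.66, SE 0.20, limma adjusted p = 0.114) and fell by 0.75 on the log2 scale without Nedd9-null replicate 1 (limma adjusted p = 0.0423). Spdef, an ETS factor of goblet and other secretory cells, had -0.57, -3.54, -3.58 and -3.65 in Nedd9-null tumours, against -2.67, 1.54, -1.98 and -1.20 in Nedd9-WT tumours, so that the 3 tumours highest in Ehf were the lowest here. Its difference was -1.76 (SE 1.05, limma adjusted p = 0.350), and the Ubp1 and Elf2 differences were both -0.53 (SE 0.27 and 0.25). The differences of Spdef, Ubp1 and Elf2 without Nedd9-null replicate 1 were -2.51, -0.62 and -0.72, and none was called (limma adjusted p = 0.111, 0.200 and 0.0537).

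Junction and surface genes of epithelia, several of them known grainyhead targets, were more often higher than lower. Of 26 such genes 25 were tested, 19 higher and 6 lower in Nedd9-null tumours, with a median of 1.01 and none called, where 54.1% of all genes were higher. Without Nedd9-null replicate 1, 12 rose and 3 fell, against 10.5% and 7.92% of all genes, and the median was 1.85. The 3 that fell, named after their values were seen, were Dsc2, Cdh3 and Lsr. Their differences were then -5.78, -2.63 and -1.80 (limma adjusted p = 0.00526, 0.0102 and 0.00437). Dsc2 had to differ to pass the filter, being well above background on only 2 of 4 Nedd9-null arrays. The summed signal of the 26 genes overlapped between the genotypes (65.3 to 133 in Nedd9-null and 62.5 to 145 in Nedd9-WT tumours). Cldn7 and Cldn4, tight junction claudins, differed by 1.81 (SE 0.47) and 0.69 (SE 0.18), and in both genes all 4 Nedd9-null tumours were above the Nedd9-WT tumours. The membrane protease gene Prss8 had -4.22, -0.17, 0.07 and -0.23 in Nedd9-null tumours, against -4.38, -4.81, -4.87 and -3.76 in Nedd9-WT tumours, the pattern of Ehf and Elf3, and differed by 3.32 (SE 0.94). With all tumours, the limma adjusted p of Cldn7, Cldn4 and Prss8 lay between 0.0948 and 0.108. Cldn7 rose by 2.27 and Prss8 by 4.34 without Nedd9-null replicate 1 (limma adjusted p = 0.00212 and 3.14e-04), and Cldn4 differed by 0.61 (limma adjusted p = 0.0512).

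The EMT transcription factors that this circuit opposes differed in both directions. Of 10 tested, 5 were higher and 5 lower, with a median of -0.00, none called with all tumours, and 2 rising and 1 falling without Nedd9-null replicate 1, against 10.5% and 7.92% of all genes. Zeb2 had 0.17, -2.44, -3.89 and -3.44 in Nedd9-null tumours, against 0.32, 0.31, 0.08 and 0.26 in Nedd9-WT tumours, so that the 3 tumours high in Ehf were the lowest in Zeb2. It differed by -2.64 (SE 0.81, limma adjusted p = 0.119) and fell by 3.50 on the log2 scale without Nedd9-null replicate 1 (limma adjusted p = 8.30e-04). Twist1 was higher in those same tumours, with -6.21, 0.19, 0.27 and 0.03 in Nedd9-null tumours against -4.89, -6.24, -6.31 and -6.18 in Nedd9-WT tumours (4.47, SE 1.43, limma adjusted p = 0.128), and it rose by 6.07 without Nedd9-null replicate 1 (limma adjusted p = 2.94e-04). Snai2 differed by 1.27 (SE 0.54) and Snai1 by -0.95 (SE 0.29), and without Nedd9-null replicate 1 Snai2 rose by 1.73 (limma adjusted p = 0.0259) whereas Snai1, at -0.97, was not called (limma adjusted p = 0.0828).

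Markers of other cells moved with these results, in the same tumours. The summed signal of 10 ciliated oviduct cell genes, in units of each array's 75th percentile, was 9.91, 92.7, 149 and 151 in Nedd9-null replicates 1 to 4, against 2.42 to 5.52 in Nedd9-WT tumours. For 6 secretory oviduct cell genes it was 6.98, 108, 154 and 108 in Nedd9-null tumours, against 2.05 to 5.77 in Nedd9-WT tumours. Among them, Foxj1, which switches on the motile cilia programme, had a difference of 6.61 (SE 1.01) and Ovgp1, the oviduct glycoprotein gene, of 6.72 (SE 2.19), and both rose without Nedd9-null replicate 1, by 7.21 and 9.08 (limma adjusted p = 0.00324 and 7.07e-04). Conversely, 8 granulosa or Sertoli cell genes summed to 139 in Nedd9-null replicate 1 and 18.7 to 20.3 in replicates 2 to 4, against 110 to 188 in Nedd9-WT tumours, a sum in which bright genes such as Amhr2 weigh most. Of the 8, 7 were lower with all tumours, with none called. The same 7 were called lower without Nedd9-null replicate 1, where 7.92% of all genes were. The eighth, the granulosa factor gene Foxl2, named after its values were seen, had 4.03, 3.51, 3.89 and 3.84 in Nedd9-null tumours, against 3.66, 3.26, 3.56 and 3.67 in Nedd9-WT tumours, and was not lower. Amhr2, whose promoter drives the transgene, was among the granulosa or Sertoli cell genes, with 6.39, 2.08, 0.20 and 1.55 in Nedd9-null tumours against 6.12, 6.89, 6.93 and 5.99 in Nedd9-WT tumours, and fell by 5.21 on the log2 scale without Nedd9-null replicate 1 (limma adjusted p = 7.39e-04).

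The 3 tumours that were high in Ehf, Elf3 and Grhl3 were therefore the 3 with high summed oviduct signals. They were also low in 7 of the 8 granulosa or Sertoli cell genes, of which Amh and Fshr had to differ to pass the filter. The part of the oviduct or of the granulosa or Sertoli cell genes in the results was not tested. All 9 tested ciliated genes and 5 of the 6 secretory genes had a difference above 0, as did 54.1% of all genes. Without Nedd9-null replicate 1, 9 ciliated and 3 secretory genes were called higher, where 10.5% of all genes were. Every defining gene of the oviduct lists that was tested was well above background on arrays of both genotypes. Dnah5, named after its values were seen, was so on only 1 of 4 Nedd9-WT arrays. It is among the 9 ciliated genes counted and had to differ to pass the filter. Of the 10 ciliated genes, 9 passed the filter on dim probes. Summed mesothelial genes lay between 38.4 and 53.0 in Nedd9-null tumours and between 31.1 and 45.0 in Nedd9-WT tumours. Leukocyte genes summed to 11.7 to 58.0 in Nedd9-null and 14.7 to 22.9 in Nedd9-WT tumours, with the highest value in Nedd9-null replicate 1. In that tumour Itgam, at 5.77, weighed most in the sum, whereas Cd68, at -4.86, was lower than in any other tumour. None of the 6 leukocyte genes was called in either fit. Endothelial genes summed to 2.92 to 3.72 in Nedd9-null and 3.12 to 4.76 in Nedd9-WT tumours. In the same order the sums were 7.81 to 10.9 and 7.94 to 23.8 for fibroblast genes, and 1.10 to 2.90 and 2.53 to 18.6 for steroidogenic genes. In whole tumours, fewer cells of a type and less RNA per cell cannot be told apart. Grhl2, Elf5, Cldn4 and Cldn7 were higher also in Nedd9-null replicate 1. The summed oviduct signals of that tumour, 9.91 and 6.98, were the lowest among Nedd9-null tumours and above the Nedd9-WT maxima of 5.52 and 5.77. Bright genes weigh most in these sums too. Of the secretory genes, Ovgp1, Sox17 and Lgals3 (-2.90, -3.24 and 0.17) lay within their Nedd9-WT ranges in that tumour. Msx1 (-1.33) lay above its range there, as did Pax8 (2.37) and Pax2 (-4.31), both named after their values were seen. Pax8 weighed most in the summed secretory signal of that tumour. Foxj1 was also higher in that tumour, at 1.07, against -6.21 to -1.51 in Nedd9-WT tumours. Of the 9 tested ciliated genes, 4 (Foxj1, Dynlrb2, Tppp3 and Cfap126) separated the genotypes upward, as 7.98% of all genes did. In the others, that tumour lay within the Nedd9-WT range.

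**Figure D3:**
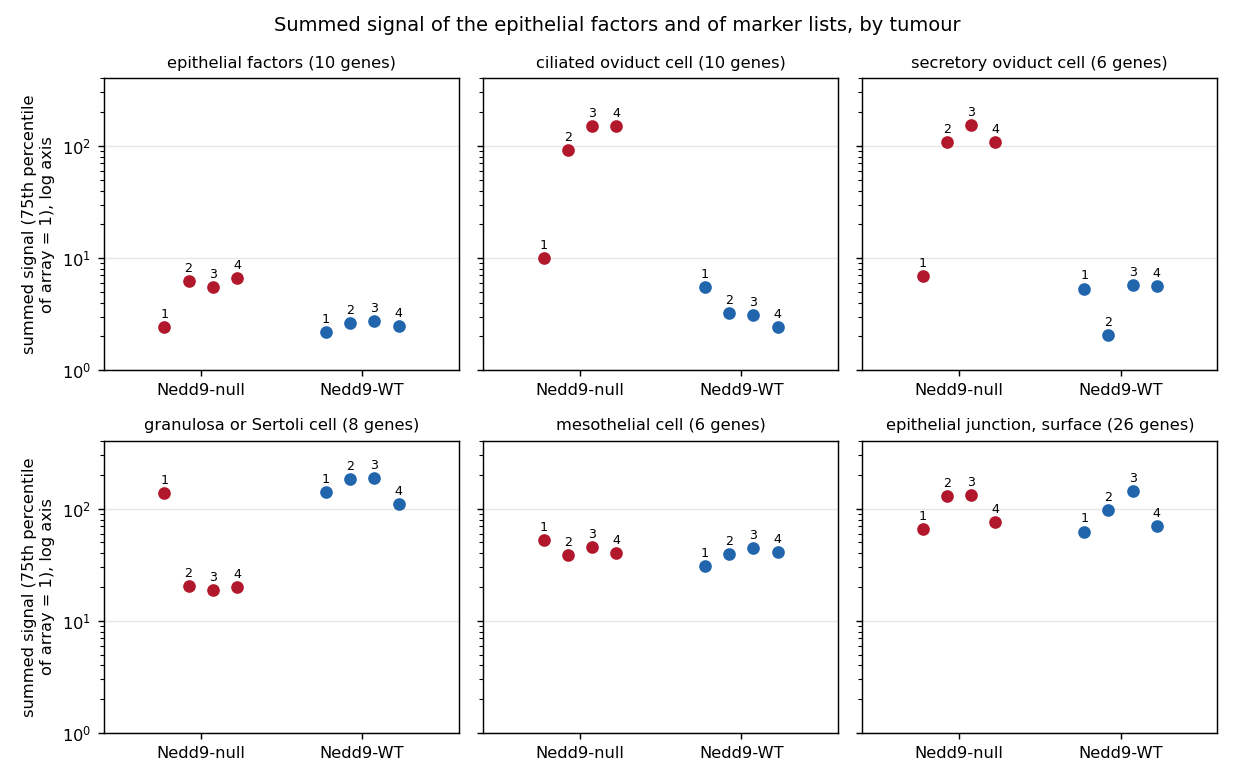
Summed signal per tumour, on a log axis in units of the 75th percentile of each array, is plotted for the 10 epithelial factors and for 5 other gene lists, with Nedd9-null tumours in red, Nedd9-WT tumours in blue and replicate numbers above the points. The ciliated and secretory oviduct sums are high in Nedd9-null replicates 2 to 4 (92.7 to 151 and 108 to 154) and the granulosa or Sertoli sum is low in them (18.7 to 20.3). The mesothelial sum, in which Wt1 weighs most, overlaps between the genotypes.

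Ehf and Elf5 are neighbours on chromosome 2, with their probes 177 kb apart in mm9, and the protein-coding genes around them were examined for that reason, after their values had been seen. Cd44, Pdhx and Apip precede Ehf, and Cat, Abtb2 and Nat10 follow Elf5. Apip, a methionine salvage gene, was higher in all 4 Nedd9-null tumours (0.80, SE 0.23, limma adjusted p = 0.111) and rose by 0.92 without Nedd9-null replicate 1 (limma adjusted p = 0.0308), and the values of Cd44 are given above. Pdhx differed by 0.00 (SE 0.25), Cat by 0.59 (SE 0.61) and Nat10 by 0.08 (SE 0.19), each with overlapping groups, and by -0.14, 0.04 and 0.18 without Nedd9-null replicate 1. Abtb2 had 2.31, -0.48, -1.31 and -1.41 in Nedd9-null tumours, against 1.89, 2.19, 2.05 and 1.83 in Nedd9-WT tumours, and fell by 3.05 on the log2 scale without Nedd9-null replicate 1 (limma adjusted p = 5.60e-04). Of the 6 neighbours, Cd44 and Apip thus separated the genotypes upward, as 7.98% of all genes did, and the other 4 overlapped.

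**Figure D4:**
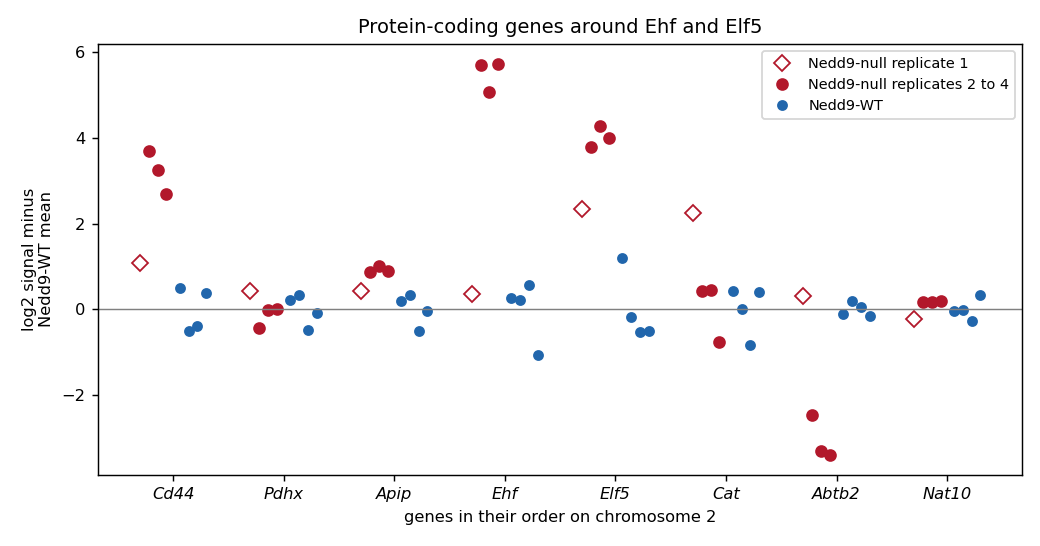
The log2 signal of each tumour minus the Nedd9-WT mean is plotted for 8 protein-coding genes in their order on chromosome 2, with Nedd9-null replicate 1 as open red diamonds, the other Nedd9-null tumours as red circles and Nedd9-WT tumours as blue circles. Ehf, Elf5 and Cd44 are high in Nedd9-null replicates 2 to 4, Abtb2 is low in them, and Pdhx and Nat10 lie near 0.

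The genes with a profile most like that of Grhl2 were sought over the 8 tumours by the root mean square difference of log2 values, each gene centred on its own mean. Of 16660 described genes, the closest were Spry1 (0.24), Nkx1-1 (0.25), Hhip (0.26), Bcas1 (0.28) and Krtap11-1 (0.33), where the median over all was 1.06. Spry1 encodes a feedback inhibitor of receptor tyrosine kinase signalling and Hhip a hedgehog-binding protein. Krtap11-1 was near background in Nedd9-WT replicates 2 and 3 (-7.58 and -7.65). None of the other tested factors was among the 5 closest, and Ovol1, which did not pass the filter, was not compared.

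Upstream sequence was available for 5 of the 10 genes, as 7 windows of the 250 bases before an annotated start (RefSeq, GRCm38.p6). The E-box CACCTG, or CAGGTG on the other strand, is the site that SNAI and ZEB repressors bind, and it occurred in 3 of the 7 windows, those of Elf3, Grhl3 and 1 of 2 starts of Elf5, against 17.2% of 32851 windows of all genes. The grainyhead motif AACCGGTT, its looser form AACNNGTT and the ETS motif CCGGAAGT, each on both strands, were in 0 of the 7 windows and in 0.116%, 3.64% and 2.88% of all windows. The windows that hold the E-box are printed because they belong to 3 genes that were high in Nedd9-null replicates 2 to 4, with the E-box in capitals on the gene's strand.
Elf3 (chr1:135258473-135258722, minus strand): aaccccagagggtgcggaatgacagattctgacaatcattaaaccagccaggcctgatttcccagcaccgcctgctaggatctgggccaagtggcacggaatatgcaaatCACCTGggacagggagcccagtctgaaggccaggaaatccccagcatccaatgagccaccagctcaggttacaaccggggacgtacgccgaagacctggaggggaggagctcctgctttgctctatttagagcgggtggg
Elf5 (chr2:103411848-103412097, plus strand): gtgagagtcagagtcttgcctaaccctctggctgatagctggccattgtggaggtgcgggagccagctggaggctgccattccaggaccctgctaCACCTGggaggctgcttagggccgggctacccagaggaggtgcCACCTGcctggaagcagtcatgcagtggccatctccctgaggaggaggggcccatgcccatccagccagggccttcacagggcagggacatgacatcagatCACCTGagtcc
Grhl3 (chr4:135573633-135573882, minus strand): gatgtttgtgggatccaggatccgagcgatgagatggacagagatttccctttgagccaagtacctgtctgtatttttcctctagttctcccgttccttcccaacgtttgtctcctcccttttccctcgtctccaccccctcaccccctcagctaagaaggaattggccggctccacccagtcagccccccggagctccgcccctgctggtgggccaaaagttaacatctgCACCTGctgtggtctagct
Elf5 has 3 copies, which begin 155, 112 and 11 bases before the start, Elf3 has 1 at 140 bases and Grhl3 has 1 at 19 bases. The other windows (the second Elf5 start, Ovol2 and both Grhl1 starts) hold none. These matches describe the letters of the windows and say nothing about binding.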

How the data were processed

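RNA of 8 tumours was labelled with Cy3 and read on 1 array each. Per the file headers and the submitters' processing notes, the deposited intensity values were made with Agilent Feature Extraction 9.5.3, which background-subtracted and detrended the processed signal within each array and did not normalize between arrays. The deposited value table holds log2 values on 1 common distribution. From its values, it follows the median spot signal (r = 0.999 or higher); how the authors treated background in it is not given in the sources used here, and it served as an alternative.

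Control spots (1377) and outlier spots (194 to 292 an array) were left out, saturated spots stayed in, and replicate spots were averaged by probe. Levels were the log2 processed signal less each array's 75th percentile (2550 to 3790 in signal). The filter passed 31784 probes that were well above background on 3 or more arrays of either genotype. The brightest of these stood for each gene. Gene names were updated through a RefSeq table of GRCm38.p6, by accession for 26055 probes, by symbol for 3195 and by synonym for 930, and the other 9249 kept the files' name. All 13 probes of the 10 genes kept their names.

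The genotype contrast was fitted in R 4.3.3 with limma 3.58.1 (lmFit, eBayes, 2-sided), which was tested on simulated data, and single probes also by exact permutation of the 8 arrays (scipy 1.17.1). The genes and the gene lists were chosen with earlier results of these data known. The text names all 10 genes, up to 4 genes with the smallest p from each other list whose genes it names, and the 5 profiles closest to Grhl2; 1 gene that this rule names is counted in its list and not reported here. No pair of arrays correlated above 0.984, so none was treated as a repeat.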

Additional observations from a re-analysis of the deposited data

Results flagged for a closer look

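In 106 groups of 4 values, 16 had a tumour set apart from the other 3 by Dixon's test, where chance flags about 1 in 20 groups, and 12 of the 16 were Nedd9-null replicate 1. Among the epithelial factors these were Elf3 (-5.09, the others -0.99 to -0.69) and both probes of Ehf (-3.45, the others 1.25 to 1.91, and -3.97, the others 0.36 to 1.04).

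Elsewhere the same tumour was low in Prss8 (-4.22), Snai2 (-2.26), Twist1 (-6.21), Dynlrb2 (-0.77), Ovgp1 (-2.90) and Sox17 (-3.24), and high in Spdef (-0.57), in the summed signal of genes spliced by ESRP proteins (38.4, the others 22.1 to 23.1) and in that of granulosa or Sertoli cell genes (139, the others 18.7 to 20.3). Within Nedd9-WT, replicate 1 was high in Twist1 (-4.89) and replicate 3 in Inhbb (3.97), replicate 3 was low in Arhgef11 (-0.0315) and replicate 2 was low in the summed secretory oviduct signal (2.05, the others 5.35 to 5.77).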

How the results depend on the processing

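With all 8 tumours, 19 genes were called (17 higher, 2 lower). The count was 8 with probes above background on all 8 arrays (6 higher, 2 lower), 35 with normexp background correction, 7 with the median as the scale (5 higher, 2 lower), 4 with quantile normalization (3 higher, 1 lower) and 0 with the replicate block, and the cause was not tested. Leaving out single tumours gave 0 to 4693 genes, the highest count with Nedd9-null replicate 1 left out, then 43 with Nedd9-WT replicate 1 left out and 2 with Nedd9-null replicate 4 left out; the remaining 5 omissions gave 0. The deposited value table gave 19 as well, split 14 higher and 5 lower. Of the 9 tested epithelial factors, 0 to 6 were called in these fits, 6 when Nedd9-null replicate 1 and 1 (Elf5) when Nedd9-WT replicate 1 was omitted, and 0 in every other alternative, the replicate block included. Same-numbered tumours did not deviate together (r = -0.23 to -0.04), so the numbers pair nothing. Esrp1 turned to -0.0737 in the deposited value table, -0.0353 with the median scale and -0.0298 with quantiles, and Ovol2 to 0.0285 without Nedd9-null replicate 2 (lowest -0.145 over the omissions of single tumours). The other 7 genes kept their direction in every alternative run. The median difference of all genes, 0.05, moved by over 0.1, to -0.15 with the median scale, -0.07 with quantiles, -0.05 in the deposited value table and -0.05 without Nedd9-null replicate 1. Slide could not be used as a block, since each slide holds 1 genotype. Among the values given, dim probes limit Elf5, Ovol1, the second probes of Grhl2 and Esrp1, and a pair of Cd44 probes. Some genes counted in the lists, among them Amh, Fshr, Dnah5 and Dsc2, passed the filter through 1 genotype alone.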

Other observations

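Named after its values were seen, Rfx2, a transcription factor gene of ciliated cells, had the profile closest to that of Grhl3 among 16660 genes (root mean square difference 0.18 on the log2 scale, where the median over all genes was 1.34). It had -4.08, -2.24, -1.55 and -1.69 in Nedd9-null replicates 1 to 4, against -4.00, -3.31, -4.80 and -3.57 in Nedd9-WT replicates 1 to 4.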
